A study of Homo sapiens with 12 samples.

Results

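The mitochondrial ribosomal protein genes, called MRP genes here, are the nuclear genes for the protein subunits of the ribosome inside mitochondria. They were chosen by symbol: every gene whose symbol starts with MRPL or MRPS, followed by a number and at most 1 letter from A to C, which gave 77 of the 26475 genes measured. Of these, 50 encode proteins of the large subunit and 26 encode proteins of the small subunit. The remaining member, MRPS36, carries a small-subunit symbol but its product belongs to the 2-oxoglutarate dehydrogenase complex. MRPS30 and MRPS18A keep small-subunit symbols, yet their products sit in the large subunit, and they were counted there.

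The mitochondrial ribosome translates the few membrane proteins of the respiratory chain that mitochondrial DNA encodes, while its own proteins are made in the cytosol and imported. Some of its subunits descend from bacterial ribosomal proteins and others arose only in mitochondria. Its output is needed for oxidative phosphorylation, the pathway that yields ATP without fermenting pyruvate to lactate.

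RNA was sequenced from MIAPaCa2 cells, an established human pancreatic ductal adenocarcinoma (PDAC) line, in 12 libraries. The 4 conditions, with 3 libraries each, were parental cells given vehicle (untreated in the labels), parental cells given oxamate, oxamate-resistant cells given vehicle and oxamate-resistant cells given oxamate. Sodium oxamate inhibits LDHA, the enzyme that turns pyruvate into lactate. The resistant cells were the survivors of 1 parental line held in 10 mM oxamate for 4 weeks, so that the line comparison rests on 1 selection of 1 line, and the dose and time of oxamate before RNA was taken were not given in the sources used here. Nothing in the labels says whether the 3 libraries of a condition came from separate cultures, and the p-values measure the spread between these libraries, which may be technical.

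Levels are given as CPM, the count of a gene relative to the size of its library after TMM scaling, which assumes that most genes do not change. Each library summed to between 46698729 and 114222169 expected counts, and the parental libraries were deeper than the resistant libraries. The TMM factors were 0.878 to 0.937 in parental and 1.08 to 1.12 in resistant libraries, so the choice of scaling moves every gene in the line comparison, and results are given below under TMM and under library size alone. With library size alone, the median gene tested stood 0.24 (log2) higher in resistant cells under vehicle and 0.34 higher under oxamate, against 0.03 and 0.01 after TMM. MALAT1, a nuclear-retained RNA, stood at 596 CPM in the third oxamate-treated parental library and at 597 in the third vehicle-treated resistant library, against 244 to 289 in the other libraries of those conditions. The cells expressed KRT8, KRT18, KRT19 and VIM, and PTPRC, CD3E, LUM, INS and PRSS1, which mark other cell types, were at or near 0. PECAM1 and VWF, listed for endothelium, had condition means of at most 0.12 and 0.20 CPM. COL1A2, listed for fibroblasts, was not low, with condition means from 703 to 941 CPM.

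All 77 MRP genes passed the filter on low counts, with at least 339 counts in every library. Their mean level ran from 7.00 CPM for MRPS28, MRPL46 at 10.1 and MRPL55 at 10.6 being next, to 151 for MRPL3, 156 for MRPS10 and 175 for MRPL37. The median member stood at 51.7 CPM, against 19.6 for all 14582 genes tested. Per kilobase of the principal transcript, the level in vehicle-treated parental cells ran from 3.02 CPM for MRPL42, whose annotated transcript is 15582 bases long, to 145 for MRPS24. Their transcripts were short, with a median of 1462 bases against 3029 for the tested genes with an annotation, and had a median of 5 exons against 8. In bulk RNA a lower level in each cell and fewer cells with the transcript cannot be told apart.

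Promoter sequence, from 250 bases before to 50 bases after the annotated start, was available from RefSeq (GRCh38.p14) for 68 of the 77 genes. The ETS motif CCGGAAG, bound by the factor GABP, was found on either strand in 28 of them, 41.2%, against 18.5% of the promoters of the genes tested and 10.7% of all 27305 promoters. The YY1 motif AAGATGGCG was found in 13 MRP promoters, 19.1%, against 3.84% of the tested and 1.85% of all promoters. TATAAA was found in 2, or 2.94%, against 5.21% and 12%. The NRF1 motif GCATGCGC was found in 6, or 8.82%, against 5.47% and 3.27%, and its full form, the same letters preceded by GC, was found among the 68 only in the promoter of MRPL17, 1.47%, against 2.3% and 1.36%. The 250 bases before the start are shown for the members with the largest differences between resistant and parental cells, which were MRPL17 and MRPS30 in the lower direction and MRPS31 in the higher direction. Capitals mark NRF1 motifs in MRPL17 (chr11:6683341-6683590, minus strand) and the ETS motif in MRPS31 (chr13:40771191-40771440, minus strand), while the stretch of MRPS30 (chr5:44808697-44808946, plus strand) holds none of these motifs.
MRPL17: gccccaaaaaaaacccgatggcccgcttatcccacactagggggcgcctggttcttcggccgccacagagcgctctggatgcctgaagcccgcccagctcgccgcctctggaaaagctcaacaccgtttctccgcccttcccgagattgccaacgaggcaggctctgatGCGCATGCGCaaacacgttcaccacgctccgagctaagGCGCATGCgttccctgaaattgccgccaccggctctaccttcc
MRPS30: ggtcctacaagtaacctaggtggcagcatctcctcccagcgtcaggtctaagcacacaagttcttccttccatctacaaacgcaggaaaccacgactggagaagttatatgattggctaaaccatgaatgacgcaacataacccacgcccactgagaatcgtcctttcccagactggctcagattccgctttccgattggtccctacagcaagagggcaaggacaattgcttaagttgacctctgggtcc
MRPS31: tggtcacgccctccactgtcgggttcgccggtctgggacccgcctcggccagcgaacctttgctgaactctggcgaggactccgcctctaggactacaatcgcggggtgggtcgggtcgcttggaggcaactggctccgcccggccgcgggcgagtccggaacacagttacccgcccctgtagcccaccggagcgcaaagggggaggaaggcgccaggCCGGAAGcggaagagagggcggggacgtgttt
The overlapping NRF1 motifs of MRPL17 start at -81 and -79 and a further 1 starts at -43, counted from the annotated start, and the ETS motif of MRPS31 starts at -32. A motif match describes these letters and is not evidence of a bound site. MRPS30 has a YY1 motif in the full window, not within the stretch shown.

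MRP transcripts were mostly lower in resistant than in parental cells, whether the cells had received vehicle or oxamate. Under vehicle, 60 of the 77 were lower and 4 higher at an adjusted p under 0.05, against 37.3% of all genes tested that were lower and 38.4% that were higher. Under oxamate, 56 were lower and 8 higher, against 39.7% and 40.6%. The median log2 difference of the members was -0.25 under vehicle and -0.27 under oxamate, so most of these differences were small. The study's threshold was a p under 0.05 with a fold change over 1.5 in DESeq2, and here the unadjusted p of edgeR was taken for it. Past this threshold stood 2 lower and 0 higher members under vehicle (6.14% and 17.2% of all genes) and 5 lower and 1 higher under oxamate (11.4% and 22.9%). Without the first oxamate-treated parental library, the 5 became 3. Under vehicle the 3 resistant libraries all lay below the 3 parental libraries for 59 members and above them for 3, against 37.9% and 39.7% of all genes, and under oxamate for 57 and 9, against 40.3% and 40.9%.

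**Figure D1:**
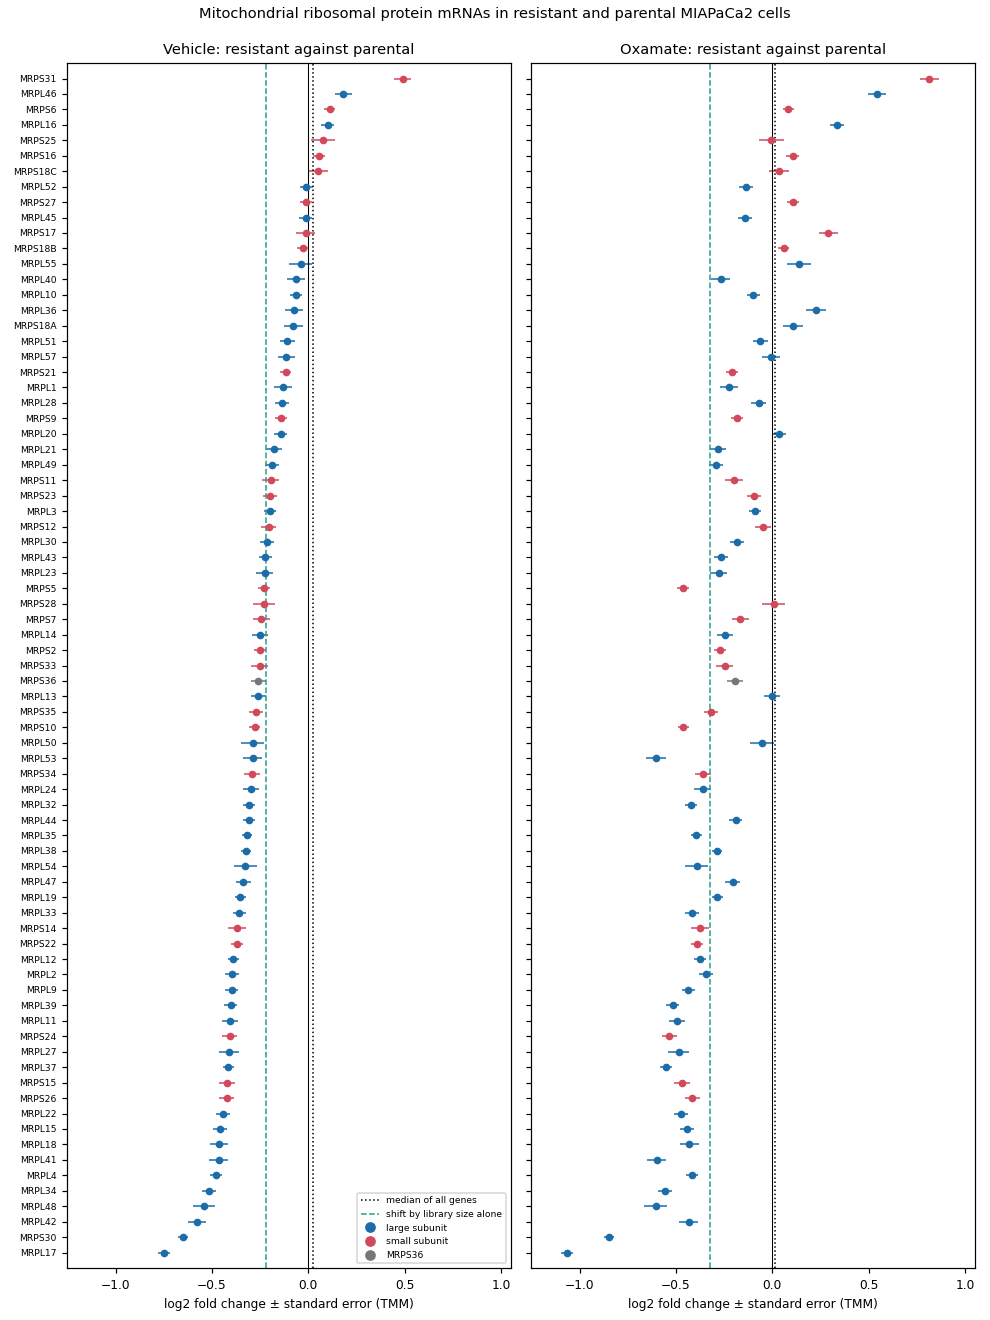
Each row is 1 of the 77 MRP genes, ordered by its difference under vehicle, and each point is the log2 fold change of resistant against parental cells with its standard error, under vehicle (left) and oxamate (right), blue for the large subunit, red for the small subunit and grey for MRPS36. Most points lie left of 0, MRPL17 and MRPS30 farthest, while MRPS31 lies farthest right in both panels. The dotted line is the median of all genes tested, and the dashed line marks the distance by which that median moved between the scalings, so that points between it and 0 turn positive or nearly so under library size alone.

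No library entered both of these line comparisons. In both, 52 members were lower and 4 higher, against 32.2% and 32% of all genes, and 68 of the 77 had the same sign, against 85.9% of all genes. The 4 higher in both were MRPS31, MRPL46, MRPL16 and MRPS6. The members without a call under vehicle included the paralogues MRPS18A, MRPS18B and MRPS18C, whose log2 differences were -0.08 ± 0.0493 (SE), -0.03 ± 0.028 and 0.05 ± 0.0496 under vehicle and 0.11 ± 0.0513, 0.06 ± 0.0289 and 0.03 ± 0.0517 under oxamate, none with an adjusted p under 0.05 after TMM. With library size alone all 3 were called higher under both treatments, MRPS18A by 0.14 and 0.43. MRPS36 was lower after TMM under vehicle, by -0.26 ± 0.0396 (adjusted p = 2.01e-05), and under oxamate, by -0.19 ± 0.0419 (adjusted p = 0.00053). With library size alone MRPS36 was not called under vehicle and was called higher under oxamate.

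The scaling changed how many members were called. With library size alone, 30 members were lower and 23 higher under vehicle, against 19% and 58.6% of all genes, and 25 were lower and 34 higher under oxamate, against 19.3% and 62.6%. Past the fold threshold stood 0 lower and 1 higher member under vehicle (2.59% and 26.2% of all genes) and 1 and 4 under oxamate (3.81% and 35.8%), MRPL17 being the lower member and MRPS31, MRPL46, MRPL16 and MRPS17 the higher ones, MRPS31 under both treatments. The members' median became -0.03 under vehicle and changed sign to 0.06 under oxamate. The difference between the members' median and that of all genes was nearly the same under both scalings, at -0.28 under vehicle and -0.28 under oxamate. Of the members lower after TMM, 6 under vehicle and 13 under oxamate were called higher with library size alone. Under both scalings, 23 members were lower in both line comparisons, 18 of the large and 5 of the small subunit, against 14.1% of all genes, and 4 were higher in all 4 of these tests, MRPS31, MRPL46, MRPL16 and MRPS6, against 32%.

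**Figure D2:**
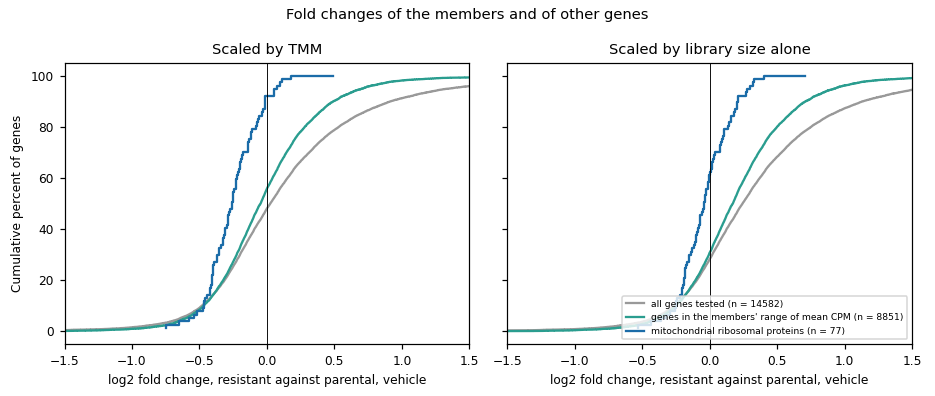
Cumulative percent of genes (y axis) against the log2 fold change of resistant against parental cells under vehicle (x axis), after TMM (left) and with library size alone (right), for the 77 MRP genes (blue), the 8851 genes tested within the members' range of mean CPM (green) and all 14582 genes tested (grey). The members' curve lies left of the other curves over most of its length in both panels, and with library size alone all 3 curves are shifted to the right.

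After TMM, the medians of genes of like level or length were less negative than those of the members. The 8851 genes tested with a mean between 7.00 and 175 CPM, the range of the members, had a median of -0.05 under vehicle and -0.05 under oxamate. Of these, 4013 were lower and 3069 higher under vehicle, and 4164 and 3401 under oxamate. The 2125 genes with a transcript within the members' interquartile range, 1035 to 1845 bases, had medians of -0.14 and -0.21. Of these, 1059 were lower and 524 higher under vehicle, and 1142 and 531 under oxamate. With the other scaling the medians were 0.17 and 0.27 for genes of like level and 0.08 and 0.12 for genes of like length. Level and length were not matched together, and their part in the differences was not tested. Other gene groups of the same kind were mostly lower after TMM, and less so by library size. Of 82 cytosolic ribosomal protein genes tested, 77 were lower under vehicle (median -0.21) and 79 under oxamate (median -0.46). By library size alone 14 of these were lower and 23 higher under vehicle (median 0.01), and 60 were lower and 6 higher under oxamate (median -0.14). Of 78 nuclear-encoded respiratory chain subunits tested, 76 and 73 were lower, with medians of -0.36 and -0.48. By library size alone 58 were lower and 5 higher under vehicle (median -0.14), and 55 were lower and 7 higher under oxamate (median -0.16). Under both scalings the members' median lay between the medians of these groups under vehicle and above both of them under oxamate.

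Summed over all members, the 3 vehicle-treated parental libraries held 4962, 4819.8 and 4793 CPM and the 3 oxamate-treated parental libraries 4809.9, 4708 and 4573 CPM. The vehicle-treated resistant libraries held 4061, 4123 and 3897 CPM, and the oxamate-treated resistant libraries 3853, 3837 and 3759 CPM. Every resistant library lay below every parental library after TMM. With library size alone the sums were 4489.6 to 4607 and 4130.1 to 4225 CPM in parental cells under vehicle and oxamate, and 4279 to 4444 and 4196 to 4271 CPM in resistant cells, so that the lines were apart under vehicle and overlapped under oxamate. In each condition the third library had the highest MALAT1 and the lowest sum over members. The part of MALAT1-rich RNA in these sums was not tested. With the 2 MALAT1-rich libraries named above left out, 59 members were lower and 5 higher under vehicle, and 58 were lower and 8 higher under oxamate.

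Within the mitochondrial ribosome, the median of the large-subunit transcripts was below that of the small-subunit transcripts under both scalings. Under vehicle 41 of 50 large-subunit members were lower and 2 higher (median -0.30), and 18 of 26 small-subunit members were lower and 2 higher (median -0.22). Under oxamate the counts were 39 and 3 for the large subunit (median -0.29) and 16 and 5 for the small subunit (median -0.19). The shares of all genes tested were 37.3% lower and 38.4% higher under vehicle, and 39.7% and 40.6% under oxamate. By library size alone, 24 large-subunit members were lower and 13 higher under vehicle (median -0.08) and 19 and 18 under oxamate (median 0.04). Of the small-subunit members, 6 were lower and 10 higher under vehicle (median 0.002) and 6 and 15 under oxamate (median 0.13). By this scaling 19% of all genes were lower and 58.6% higher under vehicle, and 19.3% and 62.6% under oxamate. The ratio of the summed large-subunit to the summed small-subunit CPM does not depend on the scaling. It was 1.93, 1.91 and 1.90 in vehicle-treated and 1.92, 1.91 and 1.91 in oxamate-treated parental libraries, and 1.78, 1.77 and 1.76 in vehicle-treated and 1.76, 1.78 and 1.79 in oxamate-treated resistant libraries. The 6 resistant libraries thus lay below the 6 parental libraries, and within each line the ranges under vehicle and oxamate overlapped. Left without MRPL17 and MRPS30, a choice made after their values were seen, the ratio was 1.75 to 1.79 in parental and 1.66 to 1.69 in resistant libraries.

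**Figure D3:**
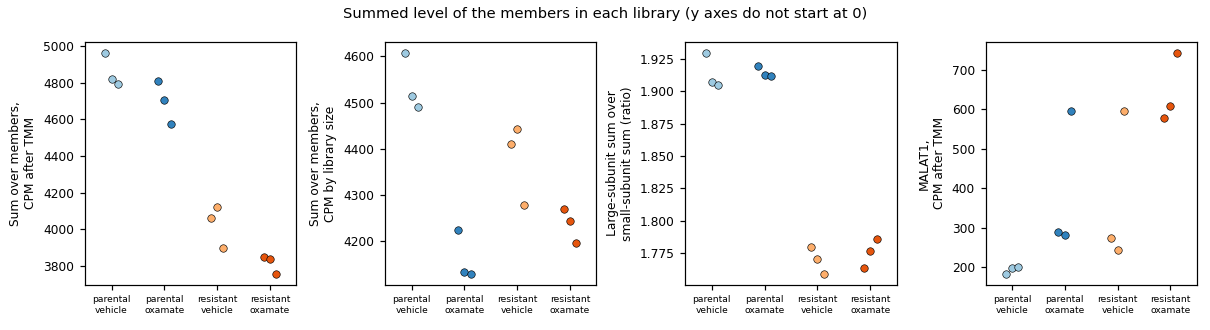
Each point is 1 of the 12 libraries, by condition, and the panels show the sum over the 77 MRP genes in CPM after TMM, the same sum by library size, the ratio of the large-subunit to the small-subunit sum, and MALAT1 in CPM. The ratio separates resistant (1.76 to 1.79) from parental libraries (1.90 to 1.93), whereas MALAT1 is high in libraries of both lines.

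Subunits of bacterial and of mitochondrial origin had close medians. Under vehicle and after TMM the 30 large-subunit members with a bacterial homologue had a median of -0.31 and the 20 specific to mitochondria -0.29, and the 16 and 10 such members of the small subunit had medians of -0.22 and -0.23. By place in the large subunit, the 5 members of the stalk, which recruits translation factors, had medians of -0.33 under vehicle and -0.39 under oxamate, with 4 and then 5 of them lower. The 6 members around the tunnel exit, where the new protein leaves the ribosome, had medians of -0.32 and -0.32, with 5 and then 6 lower. In the central protuberance, which contacts the small subunit, 4 of 6 were lower and 1 higher under vehicle and 5 were lower and 1 higher under oxamate, the higher member being MRPL46 both times. By library size alone fewer were lower: 2 of the stalk under vehicle and 2 under oxamate (1 higher each time), 3 and 2 at the tunnel exit (1 and 2 higher), and 4 and 3 in the central protuberance (2 and 1 higher). For these sets and the next, 37.3% of all genes were lower and 38.4% higher under vehicle after TMM, and 39.7% and 40.6% under oxamate. By library size alone these shares were 19% and 58.6%, and 19.3% and 62.6%. Of 6 subunits that carry other symbols, 6 were lower under vehicle and 5 under oxamate after TMM, and by library size alone 3 were lower and 2 higher under vehicle and 3 lower and 3 higher under oxamate. Of these, AURKAIP1, GADD45GIP1 and CHCHD1 stood at -0.59 ± 0.0413, -0.53 and -0.39 under vehicle and at -0.59, -0.65 and -0.56 under oxamate, while DAP3, ICT1 and PTCD3 stood at -0.14, -0.22 and -0.14 and at -0.14, -0.14 and -0.02. The first 3 were lower under both scalings, while by library size alone DAP3 and PTCD3 were higher under both treatments, each by 0.08 under vehicle (adjusted p = 0.00325 and 0.00787), and ICT1 was higher under oxamate, by 0.19 (adjusted p = 0.00114).

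MRPL17, which lines the tunnel exit and has a bacterial homologue, showed the largest difference between the lines. Its level was 123, 115 and 118 CPM in vehicle-treated and 141, 137 and 135 CPM in oxamate-treated parental libraries. In resistant cells it was 71.7, 71.2 and 68.5 CPM under vehicle and 67.6, 65.3 and 64.5 CPM under oxamate. The 4 conditions did not overlap, and oxamate went with a higher level in parental and a lower level in resistant cells. Resistant cells were lower by -0.75 ± 0.0312 on the log2 scale under vehicle (adjusted p = 5.55e-12) and by -1.06 ± 0.0318 under oxamate (adjusted p = 4.93e-14). With library size alone the differences were -0.53 and -0.74, with adjusted p of 2.44e-10 and 2.85e-12. The gene lies on chromosome 11, and the 19 other genes tested within 1000000 bases of it had a median of -0.01 in both comparisons.

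MRPS30, a large-subunit protein that arose in mitochondria despite its symbol, was next. It was measured at 119.9, 118 and 119.7 CPM in vehicle-treated and at 117, 117 and 115 CPM in oxamate-treated parental libraries. In resistant libraries it was at 75.2, 78.5 and 73.8 CPM under vehicle and at 64.97, 64.7 and 64.1 CPM under oxamate, with no overlap between the lines. The log2 difference was -0.65 ± 0.0257 under vehicle (adjusted p = 2.81e-12) and -0.85 ± 0.0264 under oxamate (adjusted p = 7.51e-14), and with library size alone -0.43 and -0.52. The 1 other gene tested within the same distance, on chromosome 5, was higher in resistant cells, by 1.1 under vehicle.

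MRPL41, MRPL48 and MRPL53, all large-subunit proteins specific to mitochondria, passed the fold threshold under oxamate only narrowly. MRPL41 was at 112, 104 and 111 CPM in oxamate-treated parental and at 71.7, 71.5 and 72.7 CPM in oxamate-treated resistant libraries, a log2 difference of -0.60 ± 0.0487 (adjusted p = 8.58e-09). MRPL53, a stalk protein, was at 51.9, 48.0 and 50.9 against 33.2, 32.8 and 33.3 CPM, a difference of -0.60 ± 0.0526 (adjusted p = 2.07e-08). MRPL48, of the central protuberance, was at 12.9, 14.0 and 13.2 against 8.57, 9.35 and 8.42 CPM, a difference of -0.61 ± 0.0585 (adjusted p = 7.71e-08). None of the 3 overlapped between the lines under oxamate, and each was also lower under vehicle, MRPL41 by -0.47, MRPL53 by -0.29 and MRPL48 by -0.54. For MRPL53 the difference under vehicle was lost with library size alone (-0.07, adjusted p = 0.21).

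MRPL37, the most abundant member, was at 206, 195 and 196 CPM in vehicle-treated parental and at 151, 152 and 145 CPM in vehicle-treated resistant libraries, without overlap. It was lower by -0.42 ± 0.0304 under vehicle (adjusted p = 4.26e-09) and by -0.55 ± 0.0307 under oxamate (adjusted p = 7.67e-11). MRPL4, a large-subunit protein with a bacterial homologue, was lower by -0.48 ± 0.0312 under vehicle (adjusted p = 1.11e-09), from 130, 126 and 119 to 90.4, 91.4 and 87.1 CPM.

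MRPS31, a small-subunit protein specific to mitochondria, went the other way. It stood at 11.5, 10.6 and 11.7 CPM in vehicle-treated and at 8.74, 8.95 and 8.51 CPM in oxamate-treated parental libraries, and at 15.5, 15.8 and 16.0 CPM under vehicle and 15.2, 15.5 and 15.4 CPM under oxamate in resistant libraries. All resistant libraries were above all parental libraries. The log2 difference was 0.49 ± 0.044 under vehicle (adjusted p = 5.11e-08) and 0.82 ± 0.0473 under oxamate (adjusted p = 1.31e-10), the only member higher past the fold threshold after TMM. Its near-identical pseudogene MRPS31P5, with 1.62, 1.83 and 1.54 CPM in vehicle-treated parental and 2.95, 2.86 and 3.30 CPM in vehicle-treated resistant libraries, was higher too, by 0.86 and 1.27, and how the counting divided reads between both was not tested.

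MRPL46, of the central protuberance, was at 9.84, 9.74 and 9.92 CPM in vehicle-treated and 7.99, 7.65 and 7.95 CPM in oxamate-treated parental libraries, and at 11.6, 10.9 and 11.0 CPM and 11.5, 11.3 and 11.6 CPM in the resistant ones. It was higher in resistant cells by 0.18 ± 0.0443 under vehicle (adjusted p = 0.00158) and by 0.54 ± 0.0471 under oxamate (adjusted p = 1.99e-08). In the annotation its start lies 34 bases from that of MRPS11, which is read in the other direction and was lower in both comparisons, by -0.20 ± 0.0452 (adjusted p = 0.00104) and -0.20 ± 0.0471 (adjusted p = 0.00111). Under library size alone MRPS11 stood at 0.02 and 0.13, so only MRPL46 kept its direction. MRPL16, from 41.5, 40.2 and 40.6 CPM in vehicle-treated parental to 45.1, 45.0 and 40.9 CPM in vehicle-treated resistant libraries, overlapped between the lines under vehicle (0.10 ± 0.036, adjusted p = 0.02) and was higher under oxamate (0.34 ± 0.0375, adjusted p = 4.36e-07). MRPS6 was at 54.6, 52.1 and 52.9 against 57.3, 57.7 and 57.3 CPM under vehicle, a difference of 0.11 ± 0.0285 (adjusted p = 0.00246), and differed by 0.08 ± 0.0291 under oxamate (adjusted p = 0.015).

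**Figure D4:**
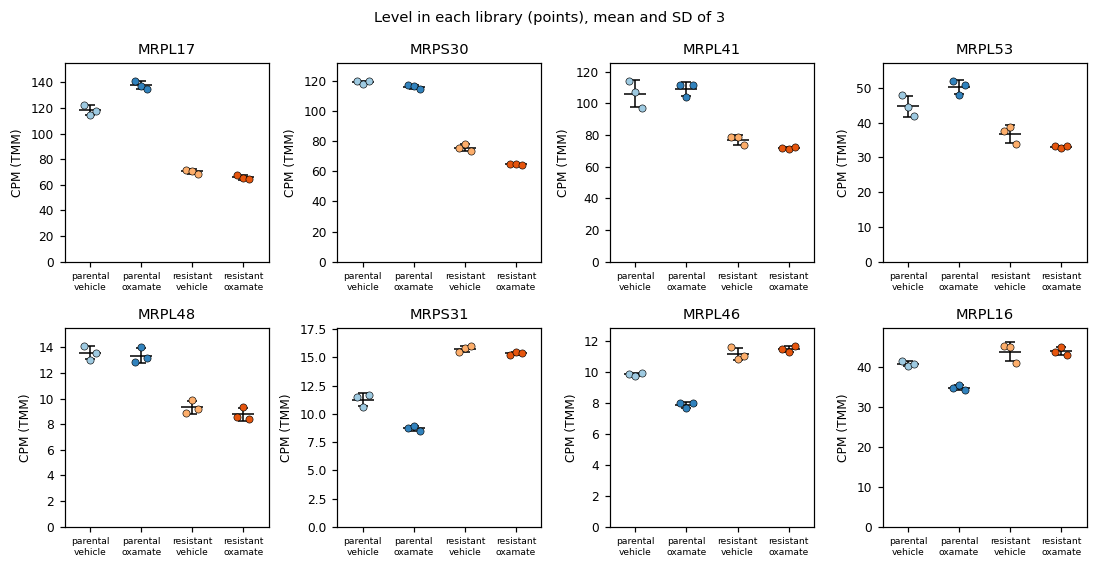
Level in CPM after TMM of 8 MRP genes in each of the 12 libraries (points), with the mean and SD of each condition (bars). MRPL17, MRPS30, MRPL41, MRPL53 and MRPL48 are lower in every resistant library than in every parental library, MRPS31 and MRPL46 are higher in every resistant library, and MRPL16 overlaps under vehicle.

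In all, 24 MRP genes, MRPL46 and MRPS11 among them, share a divergent start with a protein-coding gene within 1000 bases. The member and its partner had the same sign of difference in 9 of the 24 under vehicle and in 11 under oxamate. The pair of MRPL46 and MRPS11, of opposite sign in both comparisons, was counted from each side. Under vehicle 70 of the 77 members and 7006 of the 14582 genes tested had a negative difference, and under oxamate 63 and 7151. Members with a YY1 motif had medians of -0.29 under vehicle and -0.29 under oxamate, against -0.25 and -0.27 for those without it. With an ETS motif the medians were -0.21 and -0.21, against -0.29 and -0.31 without. By library size alone the medians were -0.07 and 0.04 with and -0.03 and 0.06 without the YY1 motif, and 0.01 and 0.12 with and -0.07 and 0.02 without the ETS motif. MRPS30 and MRPL46, which differed in opposite directions, both carry the YY1 motif in the full window. The part of these motifs in the differences was not tested.

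Oxamate itself went with smaller differences. In parental cells 34 members were lower and 7 higher after oxamate, against 30.4% and 28.3% of all genes, with a median of -0.07. Among the 8851 genes in the members' range of mean CPM, 3499 were lower and 2490 higher, with a median of -0.03. For the 2125 genes of like transcript length the counts were 441 and 707, with a median of 0.06. No member passed the fold threshold in either direction, where 4.19% and 5.69% of all genes did. The conditions did not overlap for 35 lower and 7 higher members (31.9% and 29.6%). Under library size alone 53 were lower and 1 higher (40.6% and 19.6%), and the median was -0.14. All 34 members lower after TMM were also lower with library size alone, whereas of the 7 higher members only MRPL17 was. Without the third vehicle-treated parental library the 7 became 3.

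The members with the smallest p among those lower in oxamate-treated parental cells were MRPS17, MRPL3 and MRPS31. MRPS17, a small-subunit protein with a bacterial homologue, went from 17.7, 16.9 and 15.8 CPM to 12.7, 12.8 and 11.9 CPM, a log2 change of -0.43 ± 0.0491 (adjusted p = 1.71e-06). MRPL3, of the large subunit, went from 173, 172 and 177 CPM to 145, 148 and 138 CPM, a change of -0.27 ± 0.0321 (adjusted p = 2.47e-06). MRPS31 changed by -0.36 ± 0.0468 (adjusted p = 6.54e-06). The conditions did not overlap for any of the 3. Of the higher members, MRPL17 changed by 0.22 ± 0.0303 (adjusted p = 1.51e-05), MRPL49 by 0.13 ± 0.0349 (adjusted p = 0.00584) and MRPL53 by 0.16 ± 0.0498 (adjusted p = 0.00987). MRPL49 and MRPL53 were not called with library size alone, with adjusted p of 0.172 and 0.124. The cytosolic ribosomal protein genes differed from the members here, 74 of 82 being higher after oxamate and 1 lower, with a median of 0.16 (49 higher and 4 lower, with a median of 0.09, by library size alone).

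In resistant cells 18 members were lower after oxamate and 0 higher, against 12.5% and 9.01% of all genes, again with a median of -0.07 and with 0 past the fold threshold in either direction (0.274% and 2.23% of all genes). The conditions were apart for 38 lower and 2 higher members (22.4% and 18.7%). Scaled by library size alone, 10 were lower and 0 higher (8.09% and 12%). The count of higher members was also 0 at an unadjusted p under 0.05 with edgeR, and 0 with DESeq2 and limma-voom at an adjusted p under 0.05. The count of 18 was sensitive to single libraries: it was 7 without the third oxamate-treated, the first vehicle-treated or the second vehicle-treated resistant library and 10 without the second oxamate-treated one. It was 33 without the MALAT1-rich libraries of vehicle-treated resistant and oxamate-treated parental cells, MALAT1 having stood at 577 to 742 CPM in the oxamate-treated resistant libraries. MRPS30 fell by 0.23 on the log2 scale (SE 0.0268, adjusted p = 3.44e-05). MRPL34, a large-subunit protein with a bacterial homologue, went from 32.3, 33.2 and 31.4 CPM to 27.8, 26.8 and 27.3 CPM, a change of -0.24 ± 0.0382 (adjusted p = 0.00052). MRPL52, of the large subunit and specific to mitochondria, went from 60.3, 62.2 and 58.2 CPM to 53.3, 53.0 and 51.6 CPM, a change of -0.19 ± 0.0352 (adjusted p = 0.00139). All 3 were without overlap and were also lower with library size alone.

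Of the members with a change in parental cells after TMM, 8 were lower after oxamate in both lines, against 5.62% of all genes. Another 2, MRPL17 and MRPS10, were higher in parental and lower in resistant cells, no larger a share than the 3.13% of all genes. By library size alone MRPS10 was not called higher in parental cells. The difference of the responses, tested as an interaction, was lower in resistant cells for 10 members and higher for 13, against 21.4% and 22.7% of all genes, and past the fold threshold for 0 in either direction (2.94% and 5.54%). These shares are below those of all genes. Scaled by library size alone, 4 were lower and 32 higher (12% and 34.6%). MRPL17, MRPS30 and MRPS5 had the smallest p on the lower side, at -0.32 ± 0.0444 (adjusted p = 3.38e-05), -0.19 ± 0.0367 (adjusted p = 0.000456) and -0.23 ± 0.0442 (adjusted p = 0.000473). On the higher side were MRPL46 at 0.36 ± 0.0646 (adjusted p = 0.000293), MRPS31 at 0.33 ± 0.0647 (adjusted p = 0.000683) and MRPL13 at 0.26 ± 0.0569 (adjusted p = 0.00152). MRPS5, of the small subunit, was at 103, 101 and 104 CPM in vehicle-treated and 108, 107 and 106 CPM in oxamate-treated parental libraries, and at 87.9, 91.2 and 83.7 CPM and 78.9, 79.3 and 75.1 CPM in the resistant ones. MRPL13, of the large subunit, was at 21.3, 20.8 and 21.7 and at 19.1, 19.2 and 17.6 CPM in parental cells, and at 17.6, 17.9 and 17.7 and at 18.8, 18.9 and 18.2 CPM in resistant cells.

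**Figure D5:**
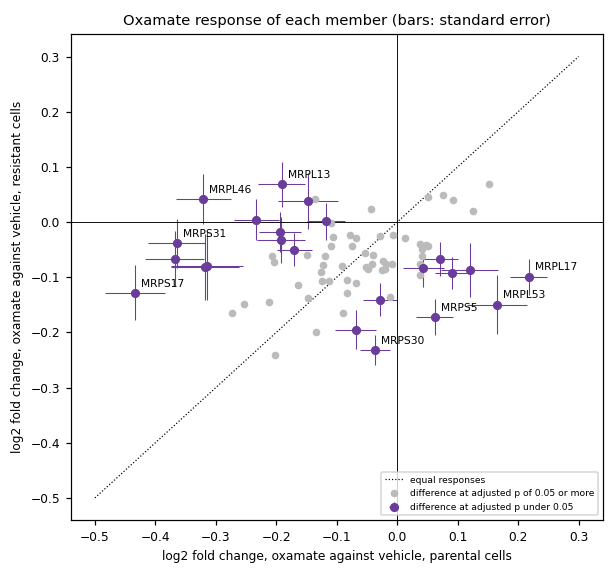
Log2 fold change of each of the 77 MRP genes after oxamate in parental cells (x axis) and in resistant cells (y axis), purple with standard errors where the responses differed at an adjusted p under 0.05 (23 genes) and grey otherwise. Points below the dotted line of equal responses, such as MRPL17 and MRPS30, responded more negatively in resistant cells, and points above it, such as MRPS31, MRPL46 and MRPS17, more negatively in parental cells.

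The genes for factors that build and serve the mitochondrial ribosome differed in both directions after TMM, and fewer of them were lower in resistant cells by library size alone. Of 24 assembly and rRNA modification genes, 9 were lower and 10 higher in resistant cells under vehicle, and 8 were lower and 13 higher under oxamate, against 3 and 15 and then 2 and 19 by library size alone. Of all genes tested, 37.3% were lower and 38.4% higher under vehicle after TMM, and 39.7% and 40.6% under oxamate. By library size alone these shares were 19% and 58.6% and then 19.3% and 62.6%. The counts under vehicle after TMM were close to the shares of all genes. DDX28, an RNA helicase needed to assemble the large subunit, was at 8.26, 8.42 and 8.56 CPM in vehicle-treated and 3.83, 4.05 and 3.55 CPM in oxamate-treated parental libraries, and at 17.5, 17.2 and 17.1 and at 19.0, 19.0 and 19.3 CPM in resistant libraries. It was higher in resistant cells by 1.04 under vehicle and 2.33 under oxamate. MRM1, which modifies mitochondrial rRNA, was higher by 0.88 and 1.52. METTL17, an assembly factor, was lower by -0.50 and -0.47. All 3 kept these directions and calls by library size alone. After oxamate 15 of the 24 were lower and 3 higher in parental cells, against 30.4% and 28.3% of all genes. By library size alone 19 were lower and 1 higher, against 40.6% and 19.6%. After TMM 5 of the lower genes passed the fold threshold (4.19% of all genes), DDX28 by -1.15.

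Of 16 translation factors and their partners, 7 were lower and 5 higher under vehicle and 6 were lower and 7 higher under oxamate, against 3 and 10 and then 3 and 13 by library size alone. The shares of all genes between the lines, given above for the assembly genes, hold for the counts of this and the next paragraph. TUFM, the elongation factor that delivers aminoacyl-tRNA to the mitochondrial ribosome, was lower by -0.42 ± 0.032 and -0.46 ± 0.032. LRPPRC and SLIRP, which together stabilise mitochondrial mRNA, were lower by -0.34 and -0.57 under vehicle and by -0.46 and -0.57 under oxamate. C12orf65, a release factor homologue that rescues stalled ribosomes, was higher by 0.34 and 1.26. These 4 genes kept their directions and calls by library size alone. Of 5 genes for mitochondrial transcription, 3 were lower and 0 higher under vehicle and 1 was lower and 3 higher under oxamate (1 and 2 and then 0 and 4 by library size alone). POLRMT, the mitochondrial RNA polymerase, was lower by -0.36 and -0.38, the second of which was not called by library size alone (-0.06, adjusted p = 0.119).

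Among 8 of 9 listed regulators of nuclear genes for mitochondria that could be tested, 4 were lower and 1 higher under vehicle, and 2 were lower and 5 higher under oxamate, against 1 and 6 each time by library size alone. YY1, the factor whose motif was counted in MRP promoters, was at 182, 185 and 184 CPM in vehicle-treated parental and at 123, 132 and 127 CPM in vehicle-treated resistant libraries, and was lower by -0.53 under vehicle and -0.70 under oxamate (-0.31 and -0.37 by library size alone). GABPA, the DNA-binding part of GABP, differed by -0.11 and -0.03, and by 0.11 and 0.30 by library size alone. NRF1 differed between the lines by 0.08 and 0.60, and by 0.30 and 0.93 by library size alone. It was at 15.5, 15.6 and 15.3 CPM in vehicle-treated and 9.83, 9.82 and 9.91 CPM in oxamate-treated parental libraries, a change of -0.65. In resistant cells NRF1 changed by -0.13 after oxamate. MRPL17, the member with the full NRF1 motif, changed by 0.22 in parental and by -0.10 in resistant cells. Whether YY1, GABP or NRF1 acted on MRP genes in these cells was not tested. LDHA, the target of oxamate, was at 1075, 1059 and 1086 CPM in vehicle-treated parental libraries and was higher after oxamate by 0.62 in parental and 0.34 in resistant cells, and LDHB was at no more than 1 count in any library.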

How the data were processed

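RNA-seq was performed on 12 libraries of MIAPaCa2 cells. The authors mapped reads with Bowtie2 2.1.0 and deposited the expected counts per gene of RSEM 1.2.15, not normalized, with hg38 as the build in the submitters' processing notes. RSEM divides reads among like transcripts, which leaves near-identical pseudogene copies uncertain. Strand use was not given in the sources used here, so reads that MRPL23 and MRPL23-AS1 might share cannot be assigned by strand. MRPL23-AS1 was counted separately, at 19 to 71 expected counts per library, against at least 339 for every member.

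After rounding, 14582 genes that passed filterByExpr were fitted over all 12 libraries with TMM factors, glmQLFit and glmQLFTest (edgeR 4.0.16 under R 4.3.3), and p-values of the 5 comparisons were adjusted by Benjamini-Hochberg. Alternatives included library size alone, other scalings, DESeq2 1.42.0, limma-voom (limma 3.58.1), a replicate block and leaving out each library. The fit was checked on simulated data: of 50 genes changed 1.25-fold in the oxamate comparison of parental cells, 38 were recovered among 14425 genes tested, and 46 of 50 at 1.5-fold. The simulated libraries shared a common mean profile and a fixed dispersion, with 200 genes changed. The check therefore does not cover the choice of scaling or the line comparisons. Named members were those past the fold threshold, those of smallest p without overlap in each direction, and those of extreme level. Members, lists and motifs were chosen with earlier results of these data known. MRPS11 and MRPL23 were named after their values were seen. Positions and transcript lengths came from GENCODE release 29 and promoters from RefSeq, by symbol.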

Additional observations from a re-analysis of the deposited data

Results flagged for a closer look

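Values here were picked out because the response to oxamate differed between resistant and parental cells in the interaction test of edgeR at an adjusted p under 0.05. They are 10 members with a lower and 13 with a higher response in resistant cells, both shares being below those of all genes. The differences of the log2 responses, resistant minus parental, were -0.32 for MRPL17, -0.23 for MRPS5 and -0.19 for MRPS30, and 0.26 for MRPL13, 0.33 for MRPS31 and 0.36 for MRPL46. For MRPL17 the level rose in parental and fell in resistant cells. For MRPS31 and MRPL46 it fell in parental cells, while in resistant cells the changes were -0.04 and 0.04 with adjusted p of 0.571 and 0.548. All 6 differences kept their direction and their call with library size alone, with adjusted p of 0.00041 for MRPL17, 0.0138 for MRPS5, 0.0299 for MRPS30, 3.66e-05 for MRPL13, 5.48e-05 for MRPS31 and 4.18e-05 for MRPL46.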

How the results depend on the processing

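Of the counts recomputed, 282 kept within 1.5 times of the main count and 38 did not. Library size alone gave 53 lower and 1 higher member after oxamate in parental cells, 10 lower in resistant cells, 30 lower and 23 higher between the lines under vehicle (0 and 1 past the fold threshold), 25 lower and 34 higher under oxamate (1 and 4 past it), and 4 lower and 32 higher for the difference of responses. Upper-quartile factors gave 9 lower after oxamate in resistant cells, 7 higher under vehicle with 1 lower past the fold threshold, and 13 higher under oxamate with 2 lower and 2 higher past it. With only the samples compared, 4 were higher after oxamate in parental cells and 2 were lower past the fold threshold between the lines under oxamate. Leaving out the MALAT1-rich libraries of oxamate-treated parental and vehicle-treated resistant cells, a choice made after seeing the data, gave 33 lower after oxamate in resistant cells and 18 lower and 7 higher for the difference of responses. RLE, no filter, DESeq2 and limma-voom moved no count by more than 1.5 times.

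Leaving out 1 library at a time gave 3 to 7 higher after oxamate in parental cells, 7 to 23 lower in resistant cells, 3 to 6 lower past the fold threshold between the lines under oxamate, and 6 to 15 lower and 7 to 15 higher for the difference of responses. The difference had 6 lower without the first oxamate-treated parental, second vehicle-treated parental, the third oxamate-treated resistant or second vehicle-treated resistant library, and 7 higher without the third oxamate-treated parental library, and 8 without the first or the second oxamate-treated or the third vehicle-treated resistant library. Between the lines 57 to 61 stayed lower under vehicle and 53 to 58 under oxamate.

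The labels do not say whether same-numbered libraries shared anything more than the number. Of 18 same-numbered pairs, 6 correlated above 0.1, with a range from -0.0998 to 0.371, and 7 of 12 libraries correlated best with their own number. The third library of each condition had the highest MALAT1 and the lowest sum over members. With the replicate block 60 members were lower and 4 higher between the lines under vehicle, 57 and 9 under oxamate, 37 and 8 after oxamate in parental cells, 23 and 0 in resistant cells, and 12 and 15 for the difference.

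Every member had at least 339 expected counts in every library. How much of the spread between libraries was counting error was not tested for the members. Most differences were under 1.5-fold, a size at which the scaling decides the call for many members.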
